A study of Mus musculus with 2 samples.

Results

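The miR-302 cluster, which takes in miR-367, and the miR-290 cluster are the miRNA genes best known from pluripotent cells, and their residual levels were read in the embryonic liver of the mouse. The members were taken by gene symbol through their Ensembl identifiers, giving 9 of the 1973 miRNA genes counted. The miR-302 cluster contributed 5 (Mir302a, Mir302b, Mir302c, Mir302d and Mir367) and the miR-290 cluster 4 (Mir291a, Mir293, Mir294 and Mir295). Short RNA, with a size range under 30 per the labels, had been sequenced from liver at embryonic day 12.5 in B6NCrl mice, males and females pooled. The single group held 2 biological replicates, with livers of 88 embryos in replicate 2 and of 120 embryos in replicate 1, and no treatment, genotype or second tissue was named. Both pools carry 1 donor identifier in the labels, so the spread between them may be partly technical.

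A miRNA is cut from a hairpin in a longer transcript, and it guides silencing of mRNAs that pair with its seed, bases 2 to 8 of the mature strand. In mouse embryonic stem cells the miR-290 cluster is among the most abundant miRNAs, and its main seed shortens the passage from G1 to S phase by repressing cell cycle inhibitors such as Cdkn1a. Some genes of the miR-302 cluster carry the same seed. The miR-302 cluster is active in the epiblast and in early endoderm, including the progenitors of the lung, and promotes reprogramming to pluripotency. Both clusters decline as cells differentiate, while let-7 miRNAs rise.

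The mature sequences show why the clusters are read together. A 3p entry of RefSeq (GRCm38.p6) was matched for 8 of the 9 members, and Mir302a is named only. The first set shares the seed AAGUGCU across both clusters, with bases 2 to 8 in capitals.
miR-302b-3p: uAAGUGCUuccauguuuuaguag
miR-302d-3p: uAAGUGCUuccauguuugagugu
miR-291a-3p: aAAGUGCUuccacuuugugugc
miR-294-3p: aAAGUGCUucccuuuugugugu
miR-295-3p: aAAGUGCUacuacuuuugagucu
The second set holds the members whose 3p strand has another seed in that annotation.
miR-302c-3p: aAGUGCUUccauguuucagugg
miR-293-3p: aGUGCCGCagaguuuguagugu
miR-367-3p: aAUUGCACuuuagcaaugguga
The annotated start of miR-302c-3p lies 1 base further in, so its first 7 bases are the same AAGUGCU run. Among 1738 mature entries, 5 hold AAGUGCU at bases 2 to 8 (0.288%), all of them on members, and 16 (0.921%) hold these letters anywhere. Counted from the first AGUGC, miR-302b-3p has the same base as miR-302d-3p at 18 of 21 positions and the same base as miR-294-3p at 13 of 20.

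The 5p strands divide the clusters. These are shown because every member of the miR-290 cluster other than Mir291a begins its 5p strand with ACUCAAA, whereas the Mir302 genes carry a CUUUAAC or CUUAAAC seed there.
miR-293-5p: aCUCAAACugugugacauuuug
miR-294-5p: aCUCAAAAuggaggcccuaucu
miR-295-5p: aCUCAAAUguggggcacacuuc
miR-302d-5p: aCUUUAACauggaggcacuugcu
miR-302a-5p: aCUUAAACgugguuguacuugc
Counts are given per gene, so reads of the 5p and 3p strands of a hairpin cannot be told apart in the values that follow.

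In mm10 coordinates of GENCODE M21 the miR-302 hairpins lie in the order Mir302b, Mir302c, Mir302a, Mir302d, Mir367 on the plus strand of chromosome 3, from 127545228 to 127545807, a span of 580 bases. They sit in an intron of Larp7, which encodes a protein bound to the 7SK RNA and runs on the minus strand from 127536714 to 127553349. The miR-290 cluster lies on the plus strand of chromosome 7, from 3218626 to 3220841, a span of 2216 bases. Its listed genes run Mir290a, Mir291a, Mir292, Mir291b, Mir293, Mir294, Mir295, and all but Mir290a overlap an exon of Nlrp12, an innate immune receptor gene on the other strand.

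Depth was alike in both libraries. Replicate 2 had 11013976 reads with 3534816 sense counts on miRNA genes, and replicate 1 had 11057424 reads with 3447858 such counts. Levels are counts per 1000000 of these sense counts (CPM), as mean ± SD of n = 2, and the reads carry no molecular identifiers, so confidence limits describe counting error alone. The label of liver was matched by the hepatocyte miRNA Mir122 at 54020 ± 9747 CPM, the erythroid Mir451a at 22459 ± 14195 CPM and the endothelial Mir126a at 68490 ± 461 CPM.

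Both clusters were still read in day 12.5 liver, with miR-302 above miR-290. Of the 9 members, 7 reached 10 CPM in both libraries, where 15.3% of all 1973 genes did, and 4 members reached 100 CPM in both, where 10.6% of all genes did. Mir295 and Mir367 stayed under 10 CPM. The 9 members together held 4588 counts in replicate 2 and 4973 in replicate 1, or 1370 ± 102 CPM, which is 0.137% ± 0.0102 of the sense counts. Their median level was 64.9 CPM, against 52.7 CPM over the 464 genes with at least 10 counts in all and 316 CPM over the 301 genes that reached 10 CPM in both libraries. In whole tissue, fewer cells that carry a miRNA and less of it per cell cannot be told apart.

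**Figure D1:**
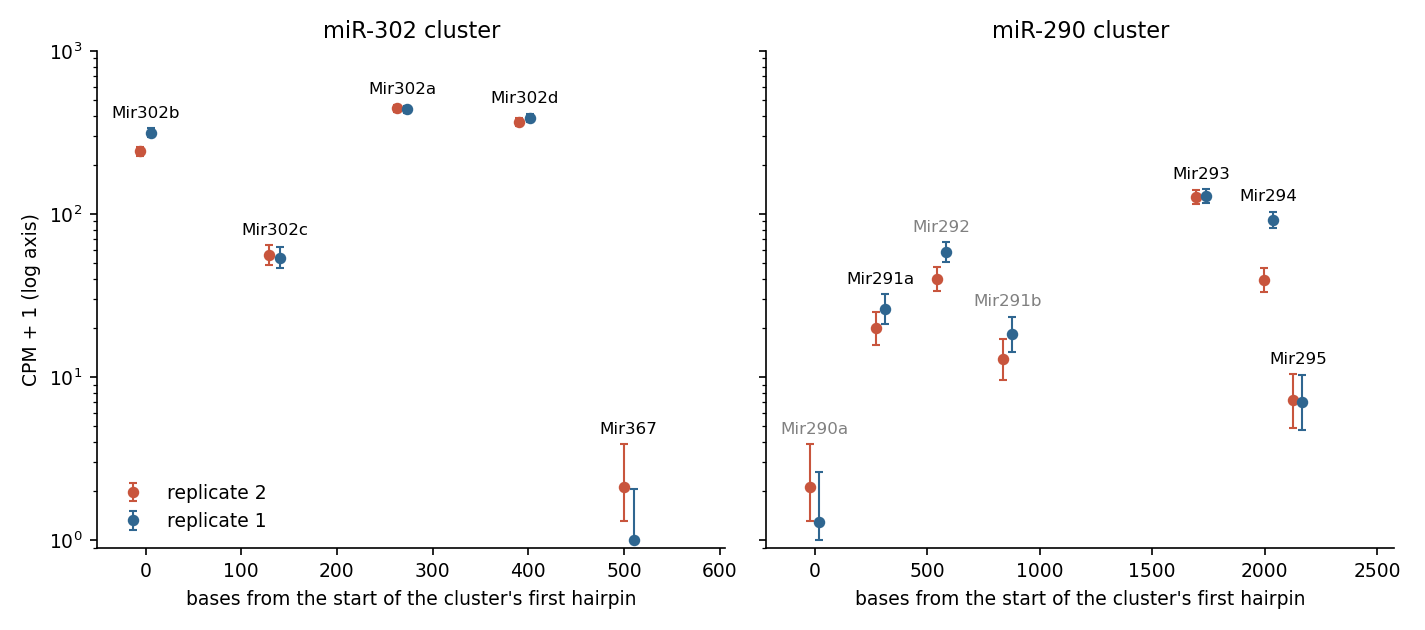
Level of each gene along its cluster in both libraries, as CPM + 1 on a log axis against distance in bases from the start of the cluster's first hairpin. Points are libraries, drawn side by side, bars are exact Poisson 95% intervals of the count, and grey names are listed genes of the miR-290 cluster that are not members. Mir302a, Mir302b and Mir302d stand between 241 and 445 CPM, Mir367 at the end of its cluster is near 0, and Mir294 is the gene whose 2 libraries stand furthest apart on this axis.

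Within miR-302, 3 of the 5 genes carried most of the counts. Mir302a, the third hairpin, had 1572 counts in replicate 2 and 1503 in replicate 1, or 445 and 436 CPM. Mir302d, the next hairpin, had 1296 and 1338 counts in replicates 2 and 1, or 366.6 and 388 CPM. Mir302b, the first hairpin, had 851 and 1084 counts in replicates 2 and 1, or 241 and 314 CPM. These 3 genes summed to 1095 ± 61.0 CPM of the cluster's 1150 ± 58.9 CPM. In both libraries the order was Mir302a, Mir302d, Mir302b.

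Mir302c, between Mir302b and Mir302a on the same strand, was much lower than either. It had 194 counts in replicate 2 and 183 in replicate 1, or 54.9 and 53.1 CPM, and it made up 4.70% ± 0.352 of the cluster. Mir302a exceeded Mir302c by 8.10 times in replicate 2 and by 8.21 times in replicate 1, a ratio that hardly varied between the libraries. Capture of each sequence was not measured, so ratios between genes need not be ratios of true levels.

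Mir367, the last hairpin, was at the edge of detection. It had 4 counts in replicate 2 (1.13 CPM) and 0 counts in replicate 1, which at a limit of 3 counts allows up to 0.870 CPM. In replicate 2, Mir302a exceeded Mir367 by 393 times (exact 95% interval 153 to 1444), and in replicate 1 by at least 501 times with Mir367 set at 3 counts. No run of 20 bases or more joins the Mir367 hairpin to another miRNA hairpin, the longest being 11 bases.

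Within miR-290, Mir293 was the highest member. Mir293, whose 3p seed is not AAGUGCU, had 446 counts in replicate 2 and 442 in replicate 1, or 126 and 128 CPM. Mir294, known from mouse stem cells for promoting reprogramming and rapid division, had 136 and 315 counts in replicates 2 and 1, or 38.5 and 91.4 CPM. Mir291a, of the same seed, had 67 and 87 counts in replicates 2 and 1, or 19.0 and 25.2 CPM. Mir295, the last hairpin, had 22 and 21 counts, or 6.22 and 6.09 CPM. The order of the 4 genes was the same in both libraries, and Mir293 exceeded Mir295 by 20.7 ± 0.548 times (SD, n = 2). The exact Poisson 95% intervals of Mir295 were 3.90 to 9.42 and 3.77 to 9.31 CPM in replicates 2 and 1. With so few Mir295 counts, counting error in this ratio is wider than that SD. As a share of the 4 members, Mir293 held 66.5% in replicate 2 and 51.1% in replicate 1, while Mir294 held 20.3% and 36.4%.

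The other listed genes of the miR-290 locus were lower than Mir293 too. Mir292, the third hairpin, had 138 counts in replicate 2 and 198 in replicate 1, or 39.0 and 57.4 CPM. Mir291b had 42 and 60 counts in replicates 2 and 1, and Mir290a, the first hairpin, had 4 and 1. With these 3 genes the cluster came to 284 ± 59.5 CPM. Mir290b and Mir292b lie on the minus strand across from Mir290a and Mir292 and are not analysed here as rows of their own. The opposite-strand counts at both places were 0 in both libraries, and over the 9 members the opposite strand held 1 count in all, at Mir291a in replicate 2.

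Ordered by mean level, the members were Mir302a, Mir302d, Mir302b, Mir293, Mir294, Mir302c, Mir291a, Mir295 and Mir367. Each neighbour differed by more than the sum of the 2 SDs except Mir294 and Mir302c, whose means of 64.9 and 54.0 CPM were 10.9 CPM apart beside summed SDs of 38.7. The ranges of those 2 genes over the libraries overlapped. An SD of 2 libraries can fall below counting error, as for Mir295 (SD 0.094 CPM). The exact Poisson 95% intervals of neighbours were nevertheless apart in each library, leaving aside the pair of Mir294 and Mir302c. Divided by hairpin length (66 to 84 bases), the order of mean CPM per base was the same but for an exchange of that pair.

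**Figure D2:**
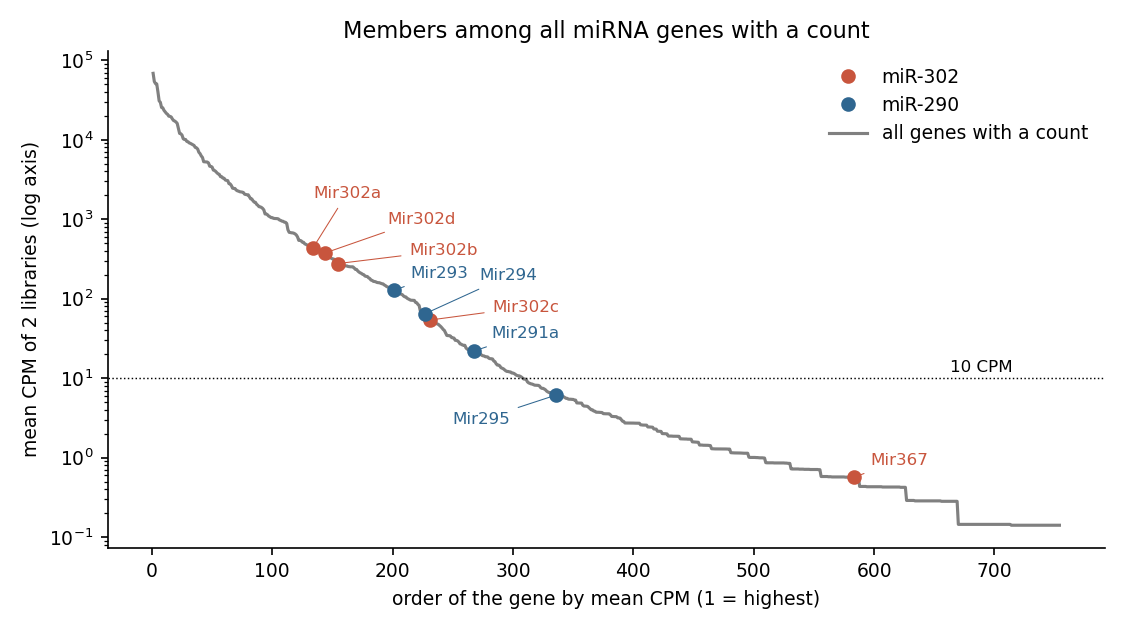
Mean CPM of the 2 libraries on a log axis against the order of each gene among those with at least 1 count, with the members marked and 10 CPM dotted. The members spread from rank 134 for Mir302a to rank 583 for Mir367, and 7 of the 9 lie above the dotted line.

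Among all genes Mir302a ranked 134, Mir302d 144, Mir302b 155 and Mir293 201. The genes nearest in mean level to Mir302a were Mir450b at 441 ± 26.9 CPM and Mir350 at 427 ± 134 CPM, with absolute log2 ratios of means of 0.0013 and 0.044. Nearest to Mir293 were Mir29c at 130 ± 6.02 CPM and Mir224 at 131 ± 18.6 CPM, with absolute log2 ratios of 0.030 and 0.041. Mir29c shares 20 bases with Mir29b-1, so its level is uncertain. This likeness rests on means of 2 libraries and says nothing of a shared pattern.

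Set side by side, the clusters differed in level in both libraries. The miR-302 genes held 1108 CPM in replicate 2 and 1191 CPM in replicate 1, and the miR-290 members held 190 CPM in replicate 2 and 251 CPM in replicate 1. The ratio of miR-302 to miR-290 was 5.84 in replicate 2 and 4.75 in replicate 1, a mean of 5.29 ± 0.770 (SD, n = 2). It was 4.12 ± 0.655 with all 7 listed genes of the miR-290 locus as the denominator. Mir302a and Mir302b share a run of 20 bases with each other, as do Mir291a and Mir291b, so reads could be assigned to either or left out as aligned to several places. Without the 3 members concerned the ratio was 2.21. Leaving them out took 718 of 1150 CPM from miR-302 and 22.1 of 220 CPM from miR-290. The lower value follows from that removal, so 2.21 is not a ratio corrected for shared reads.

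Among the 9 members the balance of the clusters differed between the 2 libraries beyond counting error, and this rested on Mir294. The ratio in replicate 2 was 1.23 times that in replicate 1 (95% interval 1.10 to 1.37, two-sided Fisher's exact test on summed counts, p = 0.000233). This test compares these libraries for counting error and not conditions, and the ratio was not tested with spread beyond counting. For counting error alone, the exact binomial test described below called 40.3% of the 464 genes compared between these libraries. With Mir294 left out, a choice made after its values were seen, the ratios were 7.32 in replicate 2 and 7.47 in replicate 1. Replicate 2 then stood at 0.980 times replicate 1 (0.862 to 1.12, Fisher's exact test, p = 0.771). All 7 listed genes of the miR-290 locus were also tried after the data were seen. With them, replicate 2 stood at 1.25 times replicate 1 (1.13 to 1.39, Fisher's exact test, p = 7.69e-06).

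Gene by gene, Mir294 was the member that differed most between the replicates. All 464 genes with at least 10 counts over both libraries were compared between the libraries by the exact binomial test, two-sided, with library sizes scaled by TMM (trimmed mean of M-values) and Benjamini-Hochberg adjustment at 0.05. Of the 8 members tested, 2 were lower in replicate 2, where 18.3% of all tested genes were, and 0 were higher, where 22.0% of all were. In either direction 40.3% of all genes were called. The split over all genes was 102 higher and 85 lower with TMM and 77 higher and 101 lower with total counts, and the same 2 members were called with each. Mir367, with 4 counts, was below the count minimum.

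Mir294 was lower in replicate 2, with a log2 ratio of replicate 2 over replicate 1 of -1.19 (95% interval -1.49 to -0.90; adjusted p = 3.18e-16, exact binomial test). Mir302b was also lower in replicate 2, its log2 ratio being -0.33 (-0.46 to -0.20; adjusted p = 2.45e-06, exact binomial test). The binomial test allows for no spread beyond counting. In edgeR's negative binomial exact test with a coefficient of variation of 0.1 assumed, Mir294 passed (adjusted p = 0.000198) and Mir302b did not (adjusted p = 0.597). With the coefficient of 0.162 estimated from these same libraries neither passed, Mir294 having an adjusted p of 0.0942.

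The other 6 members tested were not called. Mir293 and Mir302a had log2 ratios of 0.03 (-0.16 to 0.22; -0.023 with total counts) and 0.08 (-0.02 to 0.19), and Mir302d had -0.03 (-0.14 to 0.08). These intervals are narrow, though they cover counting error alone. On that footing the intervals of all 6 members exclude the log2 ratio of -1.19 seen for Mir294. Mir302c had 0.10 (-0.20 to 0.40). Mir291a at -0.36 (-0.84 to 0.12) and Mir295 at 0.08 (-0.84 to 1.02) rested on few counts. The median absolute log2 ratio of the tested members was 0.09, against 0.26 over all tested genes. Outside the members, Mir292 was called lower in replicate 2 with a log2 ratio of -0.50 (adjusted p = 0.00545, exact binomial test), while Mir291b had -0.49 (adjusted p = 0.185, same test). In edgeR's negative binomial exact test Mir292 passed with neither coefficient (adjusted p = 0.504 at 0.1).

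**Figure D3:**
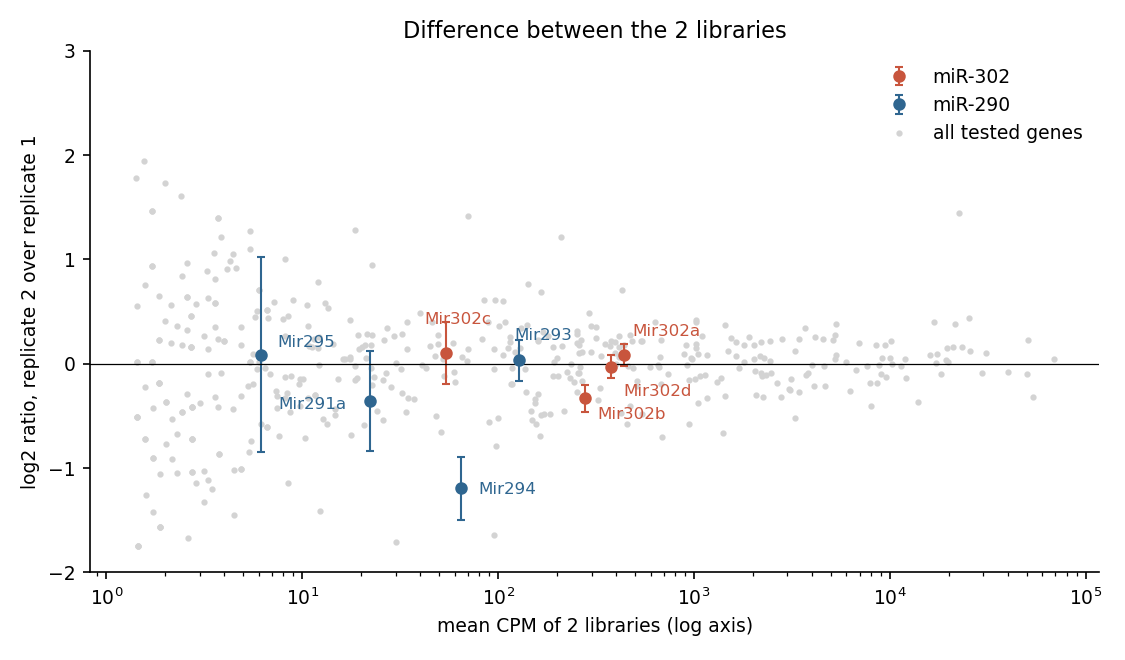
Log2 ratio of replicate 2 over replicate 1 on TMM-scaled library sizes against mean CPM on a log axis, for the tested members (with exact 95% intervals) and for all 464 tested genes in grey. Mir294 lies at -1.19, while the other tested members lie between -0.36 and 0.10.

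Mir302b shares 20 bases with Mir302a, and the part of such reads in its lower count in replicate 2 was not tested. Mir302a and Mir302b together held 2423 counts in replicate 2 and 2587 in replicate 1, or 718 ± 45.9 CPM. The ratio of Mir302a to Mir302b was 1.85 in replicate 2 and 1.39 in replicate 1, whereas that of Mir302a to Mir302d was 1.21 and 1.12.

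Markers of the liver's own cells were called between the libraries as well, beside 18.3% lower and 22.0% higher over all tested genes. Of 3 erythroid genes 2 were higher and 1 lower in replicate 2, the list summing to 37430 CPM in replicate 2 and 16926 CPM in replicate 1, with Mir451a at a log2 ratio of 1.44. Mir451a passed the negative binomial test at 0.1 and with the estimated coefficient too (edgeR, adjusted p = 2.16e-09 and 0.00435). Of 2 hepatocyte genes 1 was lower and 0 higher, Mir122 having a log2 ratio of -0.32, and neither gene passed the negative binomial test. The endothelial Mir126a was called higher with TMM, at a log2 ratio of 0.04, but lower with total counts. Mir126a did not pass the negative binomial test with either coefficient.

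Genes listed as markers of epithelium and of other tissues were called too, beside 18.3% lower and 22.0% higher over all tested genes. Whether their counts came from tissue outside the liver was not tested. All 5 epithelial miR-200 genes were lower in replicate 2, the list summing to 2116 CPM in replicate 2 and 3409 CPM in replicate 1, with Mir429 highest at 1408 ± 484 CPM. In edgeR's negative binomial test 1 of these 5 passed at 0.1 and 0 with the estimated coefficient. Of 4 pancreas genes 2 were lower and 0 higher, with 2099 CPM in replicate 2 and 2324 CPM in replicate 1, nearly all of it Mir375. Of 5 tested heart and muscle genes 3 were higher and 0 lower, with 695 CPM in replicate 2 and 441 CPM in replicate 1, Mir499 being highest and Mir1a-1, Mir133a-1 and Mir133a-2 at 0. Of these 5 genes 2 were higher in the negative binomial test with either coefficient, and 0 of the pancreas genes passed it. No airway gene of 3 and no neuron gene of 2 tested was called, with list sums of 350 and 338 CPM and of 109 and 130 CPM in replicates 2 and 1, led by Mir34c and Mir128-1. All 3 listed Mir124a genes and Mir9-2 were at 0. Of the genes analysed, 4 of 8 in the heart and muscle list and 6 of 6 in the neuron list share 20 bases with another hairpin, so their sums can be too low. With total counts in place of TMM these calls were the same, except that 1 neuron gene was lower. The part of cells of these types in the levels of Mir294 or of any other member was not tested.

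**Figure D4:**
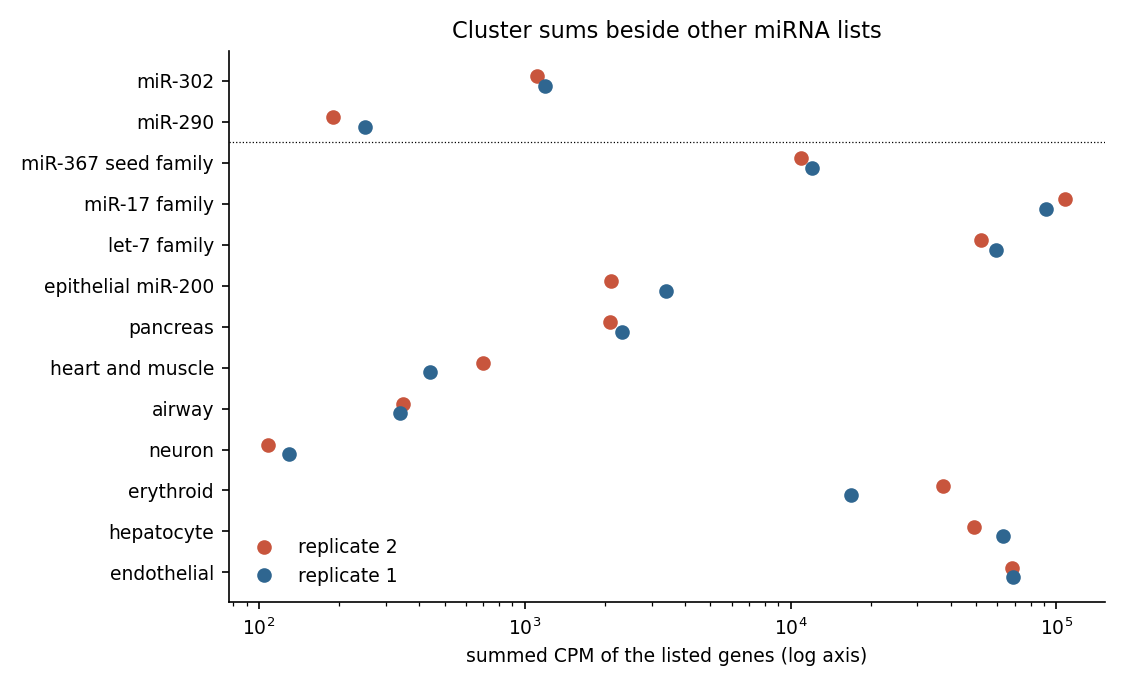
Summed CPM of the 2 clusters (above the dotted line) beside 11 other lists of miRNA genes, on a log axis with 1 point for each library. The miR-302 sum of 1150 CPM lies below those of the miR-200 and pancreas lists and above those of the heart and muscle, airway and neuron lists, and the miR-290 sum of 220 CPM is the lowest but for the neuron list.

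The miR-17 and let-7 families each summed to far more than the 9 members. The miR-17 family promotes proliferation, and its AAAGUGC seed is the AAGUGCU seed of 5 members moved by 1 base. It summed to 99567 ± 11465 CPM (SD, n = 2), or 72.7 times the sum of the 9 members. Mir17 led it at 50882 ± 4321 CPM, and 5 of its 6 genes were higher and 0 lower in replicate 2, where 22.0% of all tested genes were higher. The let-7 family, which opposes the stem cell miRNAs during differentiation, summed to 55646 ± 5089 CPM over the 10 of 12 genes analysed here, or 40.6 times the members' sum, with 8 of 10 lower and 0 higher in replicate 2, where 18.3% of all were lower. Of these 10 genes 5 share 20 bases with another hairpin, so their levels are uncertain. Both family counts were the same with total counts and with DESeq2 size factors. In edgeR's negative binomial test at 0.1, 0 of the 6 miR-17 genes and 1 of the 10 let-7 genes passed, and 0 of either with the estimated coefficient.

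The seed AUUGCAC of miR-367-3p was carried by other genes. The miR-367 seed family of Mir25, Mir32, Mir92-1, Mir92-2, Mir92b and Mir363 summed to 11515 ± 764 CPM, led by Mir92-1 at 9526 ± 830 CPM and Mir25 at 1096 ± 116 CPM. Below these came Mir32 with 298 ± 8.11 CPM, then Mir92-2 with 255 ± 17.6 CPM, then Mir363 with 193 ± 3.20 CPM. Mir92-1 and Mir92-2 share 20 bases, so their levels are uncertain. Of the 6 genes of this family 1 was higher and 2 were lower in replicate 2, under each of the 3 scalings. Over all tested genes 22.0% were higher and 18.3% lower with TMM. In the negative binomial test 0 of the family passed with either coefficient. Mir367 held 0.0103% of the counts on genes with that seed in replicate 2 and none of them in replicate 1.

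The AAGUGCU genes printed above summed to 671 CPM in replicate 2 and 825 CPM in replicate 1, or 748 ± 109 CPM, with Mir302d and Mir302b the largest parts. This sum covers the 5 genes whose 3p sequence is printed with that seed. The 440 ± 6.22 CPM of Mir302a are not in it because no 3p entry was matched for that gene. Its 3p seed was therefore not read, and the sum can be too low. The seed AAGUGCA of miR-291b-3p, which differs in its last base, is also found in miR-350-5p. Mir350 stood at 522 CPM in replicate 2 and 332 CPM in replicate 1, where Mir291b stood at 11.9 and 17.4 CPM.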

How the data were processed

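For each library the authors deposited raw read counts per miRNA gene, in columns for both strands, the sense strand and the opposite strand, the first being the sum of the others for every gene. The file lists that accompany the tables name mm10 as assembly and GENCODE M4 as annotation, and the aligner and counter are not given in these sources. Lines naming no gene held 25.8% and 29.4% of reads as unmapped, 31.1% and 28.8% as aligned to several places and 11.0% and 10.6% as in no gene (replicates 2 and 1), and stayed out of library sizes and tests. Names and coordinates came from GENCODE M21 on the same assembly, where 1894 of 1973 identifiers were found.

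CPM were computed from sense counts. The library test used SciPy 1.17.1 and TMM factors from edgeR 4.0.16 over genes with at least 10 counts; log2 ratios have 0.5 counts added. With 1 group of 2 libraries, edgeR's quasi-likelihood test has no residual degrees of freedom. The test was tried on simulated data with known changes, whose counts varied by counting error alone. That trial cannot show how the test behaves under wider spread. Other scalings (DESeq2 1.42.0 size factors), filters and strands were tried. Besides the members, the text names the other genes of both loci, the highest genes of each seed, the 2 genes nearest in level to each cluster's highest member and the highest gene of each list. Members and lists were chosen with earlier results of these data known. A run of 20 bases shared between hairpins marks a level as uncertain.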

Additional observations from a re-analysis of the deposited data

How the results depend on the processing

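Scaled to all reads of a library in place of sense counts, the 9 members summed to 433 CPM, miR-302 to 364 CPM and miR-290 to 69.6 CPM. The 5 AAGUGCU genes printed above, without Mir302a, summed to 236 CPM on that scale. With counts of both strands together the members summed to 1239 CPM and miR-302 to 1040 CPM, because opposite-strand counts of other genes enlarge the total. Without members that share 20 bases, miR-302 summed to 432 CPM and the cluster ratio was 2.21, which is no correction for shared reads. Without Mir294 that ratio was 7.40 and its change between libraries turned from 1.23 to 0.980, and with all listed genes of the miR-290 locus the ratio was 4.12. These last 2 alternatives were added after the data were seen. At 100 CPM, 4 members were detected. The 2 members called by the binomial test, Mir302b and Mir294, were also those called under each other scaling, count minimum and strand tried, against 1 (Mir294) in the negative binomial test at 0.1 and 0 with the estimated coefficient, where 5 of 464 genes passed (12 at 0.1). With total counts Mir293 had a log2 ratio of -0.023, not called either way. Leaving out 1 replicate allows no library comparison. Both replicates belong to 1 group, so no pairing arises. Depth limits Mir367 and Mir290a, with at most 4 counts each.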
